A study of Mus musculus with 24 samples.

Results

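The oxidative stress defence genes of NRF2 were followed through the differentiation of mouse C2C12 cells. They are 10 genes named by symbol, namely Nfe2l2, which encodes the transcription factor NRF2 itself, and Hmox1, Nqo1, Gclc, Gclm, Txnrd1, Srxn1, Gsr, Gsta4 and Prdx1, which are known targets of it. Every probe set annotated to these symbols was taken, whatever its values. This gave 23 probe sets out of 45101 on the array, where 18193 genes are named. Of these, 18 probe sets belong to 1 member only, and the 5 of Prdx1 are shared with Gm21399, a pseudogene of Prdx1 in RefSeq. C2C12 is an established line of mouse skeletal myoblasts. Its cells were grown in high glucose DMEM with 10% fetal bovine serum and were sampled at 50% confluency on Day -1 and at 90% confluency on Day 0. They were then moved to medium with the serum reduced to 2% by the sample labels (the text of the study gives another figure) and sampled after 6 hours, called Day 0.25, and on Day 1, Day 2, Day 3, Day 4 and Day 5, with the medium changed every 2 days. Total RNA was hybridised to Affymetrix mouse 430 version 2 arrays, 3 for each of the 8 time points. Whether the 3 replicates came from separate cultures is not given in the sources used here, and a p-value therefore covers no more than the scatter of these arrays, possibly a technical one. All groups are 1 cell line with no genotype change and no oxidant added. Time and cell density differ together between Day -1 and Day 0, both at 10% serum. Time, serum and medium change together from Day 0 to Day 0.25. From then on serum stays at 2%, while time and fresh medium change together. Within an interval these cannot be told apart.

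NRF2 is a transcription factor that is held in the cytoplasm by KEAP1, an adaptor of the CUL3 ubiquitin ligase, and is degraded there. When oxidants or electrophiles modify KEAP1, NRF2 is no longer degraded, enters the nucleus, pairs with a small MAF protein and binds the antioxidant response element of its target genes. These targets make glutathione, recycle thioredoxin and peroxiredoxin, conjugate and reduce reactive compounds, break down heme and supply NADPH. Since NRF2 is controlled largely through the stability of its protein, the level of its mRNA is not a measure of its activity. Skeletal muscle is rich in mitochondria and produces oxidants when it contracts, and the pathway is known there for its part in the response to exercise and injury.

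The antioxidant response element is the feature of sequence that these genes are known to share. Windows of 300 bases, 250 before and 50 after a transcription start, were taken from RefSeq (mouse build GRCm38.p6) and searched on both strands for its core, TGACNNNGC. A window was held for 6 of the 10 members, and for Txnrd1 for 3 starts. The core was found in windows of 5 members, Nfe2l2, Gclm, Txnrd1, Srxn1 and Prdx1. Counted by window, it was in 5 of the 8 windows of members (62.5%) and in 12.39% of all 32851 windows. The letters of an AP-1 site, TGANTCA, were in 7.81% of windows, and TGANTCAGC, the longer form that holds an AP-1 site and resembles the site of NF-E2, was in 1.19%. Some matches to these motifs are the same bases, as in Prdx1, whose match is at once the core and the longer form. The bases before the start are shown for these 5 members since they are the ones with a match. They are written 5′ to 3′ on the strand of the gene, and capitals mark the core or, for Srxn1, the longer form. A match describes these letters and is no measure of binding.
Nfe2l2: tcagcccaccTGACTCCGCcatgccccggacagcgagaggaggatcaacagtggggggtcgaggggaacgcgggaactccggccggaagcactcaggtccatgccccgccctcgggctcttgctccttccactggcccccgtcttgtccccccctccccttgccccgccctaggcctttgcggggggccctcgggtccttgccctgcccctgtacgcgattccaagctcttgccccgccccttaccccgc
Gclm: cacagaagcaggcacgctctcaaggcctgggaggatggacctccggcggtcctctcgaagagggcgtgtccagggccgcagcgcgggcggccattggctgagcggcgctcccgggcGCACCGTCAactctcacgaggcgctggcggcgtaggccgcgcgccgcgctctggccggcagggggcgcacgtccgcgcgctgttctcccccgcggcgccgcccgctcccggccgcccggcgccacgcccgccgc
Txnrd1: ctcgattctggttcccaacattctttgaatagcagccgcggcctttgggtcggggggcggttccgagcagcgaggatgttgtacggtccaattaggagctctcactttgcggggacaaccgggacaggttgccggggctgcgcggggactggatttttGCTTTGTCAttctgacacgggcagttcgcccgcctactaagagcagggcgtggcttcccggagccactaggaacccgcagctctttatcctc
Srxn1: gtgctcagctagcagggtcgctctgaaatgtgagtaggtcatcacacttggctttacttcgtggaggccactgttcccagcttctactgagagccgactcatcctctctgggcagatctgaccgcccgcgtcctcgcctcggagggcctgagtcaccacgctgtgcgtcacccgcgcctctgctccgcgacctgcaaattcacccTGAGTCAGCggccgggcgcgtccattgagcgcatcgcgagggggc
Prdx1: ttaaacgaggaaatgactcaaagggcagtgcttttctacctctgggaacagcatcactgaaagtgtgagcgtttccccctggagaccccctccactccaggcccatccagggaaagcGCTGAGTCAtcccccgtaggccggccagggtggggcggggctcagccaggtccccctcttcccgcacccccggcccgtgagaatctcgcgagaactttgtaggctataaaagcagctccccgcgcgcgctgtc

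In Nfe2l2 (chr2:75704664-75704913, minus strand) the core began at position -240 from the start. In Gclm (chr3:122245307-122245556, plus strand) it lay on the opposite strand with its first written base at -134, where it reads TGACGGTGC. In Txnrd1 (chr10:82858956-82859205, plus strand) it was at -92 and reads TGACAAAGC on the opposite strand. In Srxn1 (chr2:152105274-152105523, plus strand) the longer form was at -45, and the core itself, TGACCTAGC on the opposite strand, was at 29, after the start and so outside the bases shown. In Prdx1 (chr4:116685349-116685598, plus strand) the match was at -133 and reads TGACTCAGC on the opposite strand.

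The 24 arrays were alike in their overall values. Their median intensity lay between 3.63 and 3.87, between 25.3% and 27.0% of probe sets were at 100 or more, and the log2 values of arrays of the same time point had an r between 0.962 and 0.996. The labelled cell type was borne out by its markers. All 4 myoblast markers and all 6 markers of differentiating muscle reached 100, and the sum of the latter was between 922 and 1267 on the Day -1 arrays and between 46097 and 51945 on Day 3. All 5 fibroblast markers also reached 100. Their sum rose from between 3498 and 4416 on Day -1 to between 8538 and 11260 on Day 5, and their part in the results was not tested. Most of that rise was in Dcn, whose mean went from 37.7 to 5445. Pdgfra (27.5 to 148) and Lum (3.45 to 171) were also higher on Day 5. Col1a1 (330 and 329) and Col1a2 (3492 and 3789) had similar means on both days. No marker of adipocytes, osteoblasts, macrophages or endothelium that is on the array (3, 3, 4 and 4 genes) reached 100.

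The members fell into several courses. Genes of glutathione synthesis and of glutathione and thioredoxin recycling (Gclc, Gclm, Gsr, Srxn1 and Txnrd1) were lower at 90% than at 50% confluency. They ended lower still or about as low. Nfe2l2 and Gsta4 were instead highest on Day 0 and lower 6 hours later, and Hmox1 was highest from Day 3 on. Intensities are on the linear scale of the deposited table, where a level is the mean of 3 arrays. The ratio of the highest to the lowest of the 8 levels was 9.87 for Nqo1, 6.65 for Gclm, 5.80 for Gsr, 3.94 for Srxn1, 3.73 for Gsta4, 2.01 for Txnrd1, 1.99 for Gclc and 1.86 for both Nfe2l2 and Hmox1. Nqo1 never reached 100 and its ratio rests on low values, being 1.36 when values below 50 are raised to 50. Of the other members, 8 could be tested through a probe set of their own with a level of at least 100, and Prdx1 is given jointly with Gm21399 and is in no count. By limma's F test over the time points all 8 changed at an adjusted p under 0.05, against 89.4% of all 7906 genes tested, so a change somewhere in the course does not set them apart.

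**Figure D1:**
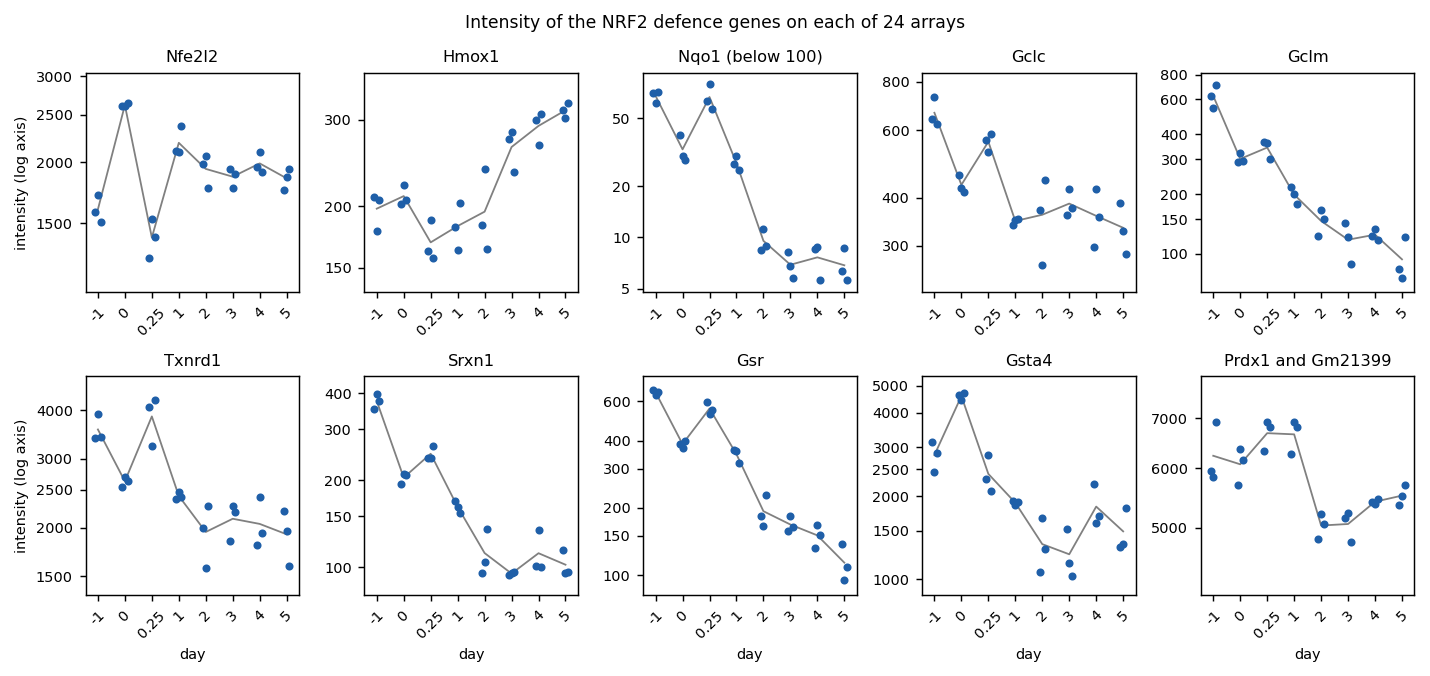
Intensity (log axis, base 2) of each member on the 24 arrays against the day of sampling. Points are single arrays, 3 for each time point, lines join the means, and each gene is shown by its probe set with the highest mean over all arrays. Gclm, Gsr, Srxn1 and Nqo1 end far below their Day -1 points, Nfe2l2 and Gsta4 peak on Day 0, and the Hmox1 points from Day 3 on lie above nearly all earlier ones.

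Neighbouring time points were compared next, to find when the members changed. From Day -1 to Day 0, 5 of the 8 fell (Gclc, Gclm, Txnrd1, Srxn1 and Gsr; 21.5% of all genes tested fell) and 2 rose (Nfe2l2 and Gsta4; 25.2% of all genes rose). The median log2 change of the 8 was -0.53, and 0.02 over all genes. From Day 0 to Day 0.25, 2 rose (Txnrd1 and Gsr; 21.5% of all genes) and 3 fell (Nfe2l2, Gsta4 and Hmox1; 23.6% of all genes). Both intervals share the Day 0 arrays, so a change in them moves both in opposite directions. From Day 0.25 to Day 1, 5 fell (Gclc, Gclm, Txnrd1, Srxn1 and Gsr; 14.1% of all genes) and Nfe2l2 alone of the 8 rose (12.3% of all genes), with a median of -0.64 and of -0.04 over all genes.

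After Day 1 fewer members moved. From Day 1 to Day 2, where both days were fitted alone, 4 fell (Gsr, Srxn1, Gclm and Gsta4; 16.8% of 7383 genes) and none of the 8 rose by limma, also at an unadjusted p under 0.05 (19.6% of genes rose). Gsr was the call that held whichever array was left out, and the count of falls lay between 1 and 4. It was down to Gsr alone without Day 1 replicate 1 or Day 1 replicate 2 or Day 2 replicate 1, and Gclm and Gsta4 were also lost without Day 1 replicate 3 or Day 2 replicate 3. From Day 2 to Day 3, Hmox1 rose (3.21% of all genes). By its counted probe set no member fell, also at an unadjusted p under 0.05 (3.29% of all genes fell). A second probe set of Gsr, outside the counts, was lower there by limma at an unadjusted p of 0.00411 (log2 change -0.37, SE 0.11, adjusted p = 0.0585). From Day 3 to Day 4 no member passed in limma, where 0.316% of all genes rose and 0.683% fell, and at an unadjusted p under 0.05 Gsta4 was higher. From Day 4 to Day 5 again none passed, where 1.42% rose and 2.29% fell, and at an unadjusted p under 0.05 Gclm and Gsr were lower. The second probe set of Gsr, which is in no count, did pass as lower there (log2 change -0.43, SE 0.11, adjusted p = 0.0400). Leaving out Day 4 replicate 1, or else Day 5 replicate 1 or 3, let 1 member pass as lower. Over Day 2 to Day 5, Hmox1 rose (12.5% of all genes) and Gclm and Gsr fell (21.5% of all genes). Over the whole course, Day -1 to Day 5, 6 of the 8 fell (38.4% of all genes) and 2 rose, Nfe2l2 and Hmox1 (31.6% of all genes), with a median of -0.96 and of -0.08 over all genes.

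**Figure D2:**
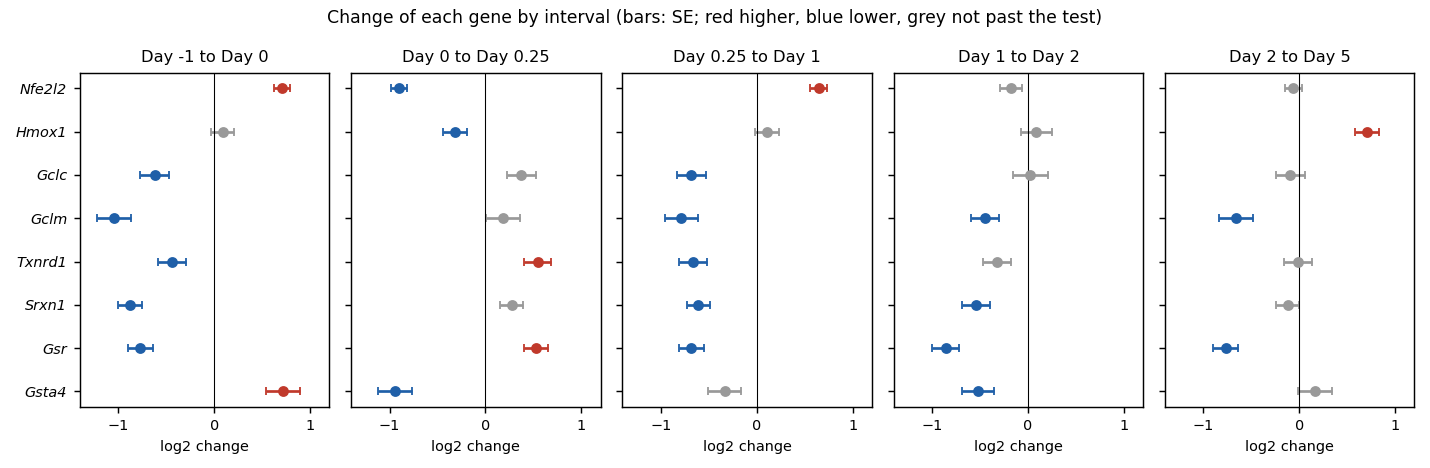
Log2 change of the 8 tested members (rows) in 5 intervals (panels), with the standard error of limma's fit as bars. Red points passed as higher, blue as lower and grey did not pass. Gclc, Gclm, Txnrd1, Srxn1 and Gsr are blue from Day -1 to Day 0 and again from Day 0.25 to Day 1, where Nfe2l2 is red.

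Nfe2l2 (ID 18024), the gene of NRF2, changed in opposite directions in the first 3 intervals. Its arrays read 1585, 1713 and 1510 on Day -1, 2605, 2602 and 2644 on Day 0, 1276, 1528 and 1407 on Day 0.25 and 2108, 2100.2 and 2367 on Day 1. The Day 0 arrays lay above all others and the Day 1 arrays above all but those of Day 0. The level rose 1.63-fold from Day -1 to Day 0 (log2 change 0.71, SE 0.09, adjusted p = 2.08e-06), fell 1.87-fold in the next 6 hours (log2 change -0.90, SE 0.09, adjusted p = 1.44e-07) and rose 1.56-fold by Day 1 (log2 change 0.64, SE 0.09, adjusted p = 2.12e-05). From Day 2 on its arrays read between 1754 and 2097, the 4 time points overlapped each other, and no interval passed. In order, Day 0 and Day 1 stood apart from their neighbours, Day 4, Day 2, Day 3 and Day 5 overlapped in turn, and Day -1 and Day 0.25, the lowest, overlapped. Day 5 was 1.16-fold above Day -1 (log2 change 0.21, SE 0.09, adjusted p = 0.0347). That call was lost without Day -1 replicate 1 or 3 or Day 5 replicate 2 or 3, with an adjusted p of up to 0.129, and in a fit of both days alone (0.165). A further probe set of Nfe2l2 stayed between 2.62 and 3.09 in its means and was not tested.

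Glutathione is made in steps, of which the first, the joining of glutamate and cysteine, limits the rate. Gclc (ID 14629) encodes the catalytic and Gclm (ID 14630) the modifier subunit of the ligase that carries it out. Gclm read 625, 543 and 707 on Day -1, 289, 322 and 292 on Day 0, 365, 364 and 301 on Day 0.25 and 217, 201 and 179 on Day 1. It then read 123, 167 and 149.8 on Day 2, 144, 121 and 88.7 on Day 3, 124, 134 and 118 on Day 4 and 84.5, 75.5 and 122 on Day 5. The Day -1 arrays lay above all others, those of Day 0 and Day 0.25 overlapped, and from Day 2 on neighbours in the order overlapped. Gclm fell 2.07-fold from Day -1 to Day 0 (log2 change -1.05, SE 0.18, adjusted p = 8.57e-05), fell 1.72-fold from Day 0.25 to Day 1 (-0.79, SE 0.18, adjusted p = 0.00277) and was 6.76-fold lower on Day 5 than on Day -1 (-2.76, SE 0.18, adjusted p = 2.90e-11). The change over the first 6 hours, 0.19 with an SE of 0.18, did not pass (adjusted p = 0.401). The fall from Day 1 to Day 2 (-0.45, SE 0.14, adjusted p = 0.0443) was lost without any of 5 of the 6 arrays, all but Day 2 replicate 2. The fall from Day 2 to Day 5 (-0.66, SE 0.18, adjusted p = 0.00621) was lost when both days were fitted alone (0.0756).

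Gclc had a smaller range and levelled off earlier. It read 641, 733 and 622 on Day -1, 458, 424 and 413 on Day 0, 566, 525 and 587 on Day 0.25 and 340.4, 350.2 and 353 on Day 1. These 4 time points did not overlap each other. It fell 1.54-fold from Day -1 to Day 0 (log2 change -0.62, SE 0.15, adjusted p = 0.00269) and 1.61-fold from Day 0.25 to Day 1 (-0.68, SE 0.15, adjusted p = 0.00267), the latter in 1 of its 2 probe sets. Its level on Day 0.25 was 1.29-fold that on Day 0, which missed the threshold (0.37, SE 0.15, adjusted p = 0.0543). From Day 1 on its arrays lay between 267 and 445 with all neighbours in the order overlapping, and the log2 change from Day 2 to Day 5 was -0.09 with an SE of 0.15 (adjusted p = 0.682).

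Gsr (ID 14782) encodes glutathione reductase, which returns oxidised glutathione to its reduced form with NADPH. It read 675, 641 and 660.4 on Day -1, 387, 373 and 399 on Day 0, 597, 527 and 548 on Day 0.25, 364, 361 and 319 on Day 1 and 185, 166 and 229 on Day 2. None of these 5 time points overlapped another. Gsr fell 1.71-fold from Day -1 to Day 0 (log2 change -0.77, SE 0.13, adjusted p = 7.66e-05) and rose 1.44-fold over the first 6 hours (0.53, SE 0.13, adjusted p = 0.00281). It then fell 1.60-fold to Day 1 (-0.68, SE 0.13, adjusted p = 0.000658), 1.81-fold from Day 1 to Day 2 (-0.86, SE 0.14, adjusted p = 0.00377) and 1.70-fold from Day 2 to Day 5 (-0.77, SE 0.13, adjusted p = 0.000104). It read 157, 184 and 164 on Day 3, 133, 167 and 152 on Day 4 and 138, 95.3 and 108 on Day 5, each overlapping the day before. All of these calls held whichever array was left out, and over the whole course it was 5.86-fold lower (-2.55, SE 0.13, adjusted p = 8.45e-13).

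The thioredoxin branch was measured through Txnrd1, Srxn1 and Prdx1. Txnrd1 (ID 50493), the cytosolic thioredoxin reductase, read 3385, 3905 and 3419 on Day -1, 2548, 2702 and 2635 on Day 0, 4078, 3243 and 4247 on Day 0.25 and 2364, 2466 and 2401 on Day 1. Day -1 and Day 0.25 overlapped, and both lay above Day 0, which lay above Day 1. It rose 1.46-fold over the first 6 hours (log2 change 0.54, SE 0.14, adjusted p = 0.00541) and fell 1.59-fold by Day 1 (-0.67, SE 0.14, adjusted p = 0.00211). Its 1.36-fold fall from Day -1 to Day 0 (-0.44, SE 0.14, adjusted p = 0.0184) was lost without Day -1 replicate 2 (0.0809) or Day 0 replicate 1 (0.0519). From Day 2 on its arrays lay between 1575 and 2391 and overlapped throughout. Day 5 was 1.87-fold below Day -1 (-0.90, SE 0.14, adjusted p = 1.42e-05).

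Srxn1 (ID 76650) encodes sulfiredoxin, which restores peroxiredoxins whose active cysteine has been overoxidised. It read 353, 397 and 375 on Day -1, 194, 209.8 and 208 on Day 0, 239, 239 and 262 on Day 0.25, 169.7, 161 and 154 on Day 1 and 95.9, 104 and 136 on Day 2. These 5 time points did not overlap each other. It fell 1.84-fold from Day -1 to Day 0 (log2 change -0.88, SE 0.12, adjusted p = 1.03e-05) and 1.53-fold from Day 0.25 to Day 1 (-0.61, SE 0.12, adjusted p = 0.00108). Its change over the first 6 hours, 0.27 with an SE of 0.12, did not pass (adjusted p = 0.0747). Its fall from Day 1 to Day 2 (-0.54, SE 0.14, adjusted p = 0.0235) was lost without Day 1 replicate 1 or 2 or Day 2 replicate 1. From Day 2 on all its arrays lay between 94.0 and 136, and Day 5 was 3.68-fold below Day -1 (-1.88, SE 0.12, adjusted p = 3.47e-11).

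Prdx1 encodes a peroxiredoxin that removes hydrogen peroxide, and its 5 probe sets could not be told from Gm21399. From Day 1 to Day 2 all 5 fell, by between 0.40 and 0.99 on the log2 scale. The one with the highest mean over all arrays read 6262, 6913 and 6803 on Day 1 and 4829, 5217 and 5066 on Day 2, without overlap (log2 change -0.40, SE 0.10, adjusted p = 0.0178), and its change from Day -1 to Day 5 did not pass (-0.17, SE 0.08, adjusted p = 0.0575). The probe sets differed over the whole course. From Day -1 to Day 5, 2 fell (-0.83, SE 0.10, adjusted p = 3.52e-07, and -0.42, SE 0.10, adjusted p = 0.000774), while the other 2 gave -0.15 and -0.20 and did not pass. On Day 1, 3 probe sets were at their highest and 2 were not. Those 3 had risen from Day 0 to Day 0.25 (0.38, 0.30 and 0.28, adjusted p = 0.00670, 0.0215 and 0.0236), and the other 2 did not pass there. From Day 0.25 to Day 1, 2 of them rose again (0.32 and 0.29, adjusted p = 0.0297 and 0.0300). From Day 2 to Day 5, 2 rose (0.35 and 0.27, adjusted p = 0.0154 and 0.0419) and the others did not pass. The SEs of these rises lay between 0.10 and 0.11.

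Enzymes that act on reactive compounds themselves did not share a course. Gsta4 (ID 14860) encodes a glutathione transferase that conjugates the lipid peroxidation product 4-hydroxynonenal. It read 3135, 2451 and 2850 on Day -1, 4629, 4450.1 and 4707 on Day 0, 2314, 2810.2 and 2089 on Day 0.25 and 1921, 1852 and 1900 on Day 1. The Day 0 arrays lay above all others, and Day -1 and Day 0.25 overlapped. Gsta4 rose 1.64-fold from Day -1 to Day 0 (log2 change 0.72, SE 0.17, adjusted p = 0.00253) and fell 1.93-fold over the next 6 hours (-0.95, SE 0.17, adjusted p = 0.000277). Its fall from Day 1 to Day 2 (-0.52, SE 0.16, adjusted p = 0.0417) was lost without any of 5 of the 6 arrays, all but Day 2 replicate 2. From Day 2 on its arrays lay between 1028 and 2203 with neighbours in the order overlapping, and Day 5 was 1.90-fold below Day -1 (-0.92, SE 0.17, adjusted p = 9.53e-05).

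Nqo1 (ID 18104) encodes the quinone reductase that is often taken as the model target of NRF2. It read 70.9, 61.4 and 71.2 on Day -1, 40.2, 30.3 and 28.4 on Day 0, 63.5, 80.1 and 56.8 on Day 0.25, 27.1, 30.0 and 24.9 on Day 1 and 8.48, 11.2 and 8.95 on Day 2. Day -1 and Day 0.25 overlapped, as did Day 0 and Day 1, and the first pair lay above the second. All arrays from Day 3 on lay between 5.61 and 8.74. Because it never reached 100 it was tested only with the filter on low levels removed, over 45037 probe sets. There it fell from Day -1 to Day 0 (log2 change -1.06, SE 0.20, adjusted p = 0.00105), rose over the first 6 hours (1.02, SE 0.20, adjusted p = 0.00172) and fell to Day 1 (-1.28, SE 0.20, adjusted p = 0.000498) and to Day 2 (-1.52, SE 0.13, adjusted p = 0.0127). All of these intensities were below the level minimum of 100, and those from Day 2 on were near the lower end of the scale. The size of the changes is therefore uncertain, above all for those that involve Day 2 or later.

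Hmox1 (ID 15368) encodes heme oxygenase 1, which breaks heme down to iron, carbon monoxide and biliverdin. It read 183, 238 and 164 on Day 2, 274, 283 and 235 on Day 3, 299.8, 267 and 309 on Day 4 and 314, 303 and 325 on Day 5. The Day 5 arrays lay above all of Day 2 and of the earlier days, while Day 3 and the highest Day 2 array overlapped. Hmox1 rose 1.63-fold from Day 2 to Day 5 (log2 change 0.70, SE 0.12, adjusted p = 0.000175) and was 1.59-fold above Day -1 on Day 5 (0.67, SE 0.12, adjusted p = 7.23e-05). Before that it read between 157 and 221 from Day -1 to Day 1, with overlapping neighbours in the order. Its steps between neighbours were less secure. The rise from Day 2 to Day 3 (0.45, SE 0.12, adjusted p = 0.0352) was lost without Day 2 replicate 1 or 3 or Day 3 replicate 1 or 2, with an adjusted p of up to 0.195, and when both days were fitted alone (0.227). The fall from Day 0 to Day 0.25 (-0.32, SE 0.12, adjusted p = 0.0440) was lost without any of 5 of the 6 arrays, all but Day 0.25 replicate 2, with an adjusted p of up to 0.153.

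Where a gene had several probe sets, these were compared to see how far its course depended on the choice. The 2 probe sets of Gsr moved together, with log2 changes from Day -1 to Day 5 of -2.55 and -2.58. The 3 probe sets of Txnrd1 all fell from Day -1 to Day 0, rose over 6 hours and fell to Day 1, and their change from Day -1 to Day 5 lay between -0.83 and -1.38. Of the 4 of Srxn1, 3 fell from Day -1 to Day 5, with log2 changes between -1.88 and -2.79. The last stayed near 2 on the linear scale and was not tested. Of the 3 that fell, 1 reached 100 on Day -1 only (mean 134), a course that the level filter favours. The one with the largest fall also fell from Day 2 to Day 5 (-0.54, SE 0.19, adjusted p = 0.0326). The others tested did not pass there (-0.12 and -0.01). The latter is that of the probe set that reached 100 on Day -1 only, with means of 34.9 on Day 2 and 34.4 on Day 5. From Day 1 to Day 2 the probe set with the largest fall missed the threshold (-0.49, SE 0.17, adjusted p = 0.0581). For Gclm both fell from Day -1 to Day 0 by the same amount (-1.05 and -1.03), but the second rose over the first 6 hours (0.47, SE 0.16, adjusted p = 0.0254) and had a smaller change from Day -1 to Day 5 (-1.65). Neither of the later falls of Gclm passed in it, with -0.06 from Day 1 to Day 2 (SE 0.15, adjusted p = 0.777) and -0.22 from Day 2 to Day 5 (SE 0.16, adjusted p = 0.323). The 2 of Gclc both fell from Day -1 to Day 0, the dimmer one by less (-0.31, SE 0.08, adjusted p = 0.00552, against -0.62). They disagreed more after Day 0.25. From Day 0.25 to Day 1 the dimmer one did not pass (-0.18, SE 0.08, adjusted p = 0.115), so the fall given above is that of the brighter one alone. The dimmer one read 116, 129 and 109.5 on Day 1, 77.9, 86.4 and 83.0 on Day 2 and 123, 114 and 114 on Day 5. It fell from Day 1 to Day 2 (-0.52, SE 0.11, adjusted p = 0.00970), rose from Day 2 to Day 5 (0.51, SE 0.08, adjusted p = 8.54e-05) and ended 1.16-fold below Day -1, against 2.00-fold for the brighter one. It also rose over the first 6 hours (0.28, SE 0.08, adjusted p = 0.0112), which the brighter one missed. From Day 2 to Day 3 the dimmer one rose (0.28, SE 0.08, adjusted p = 0.0489) and the brighter one did not pass.

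**Figure D3:**
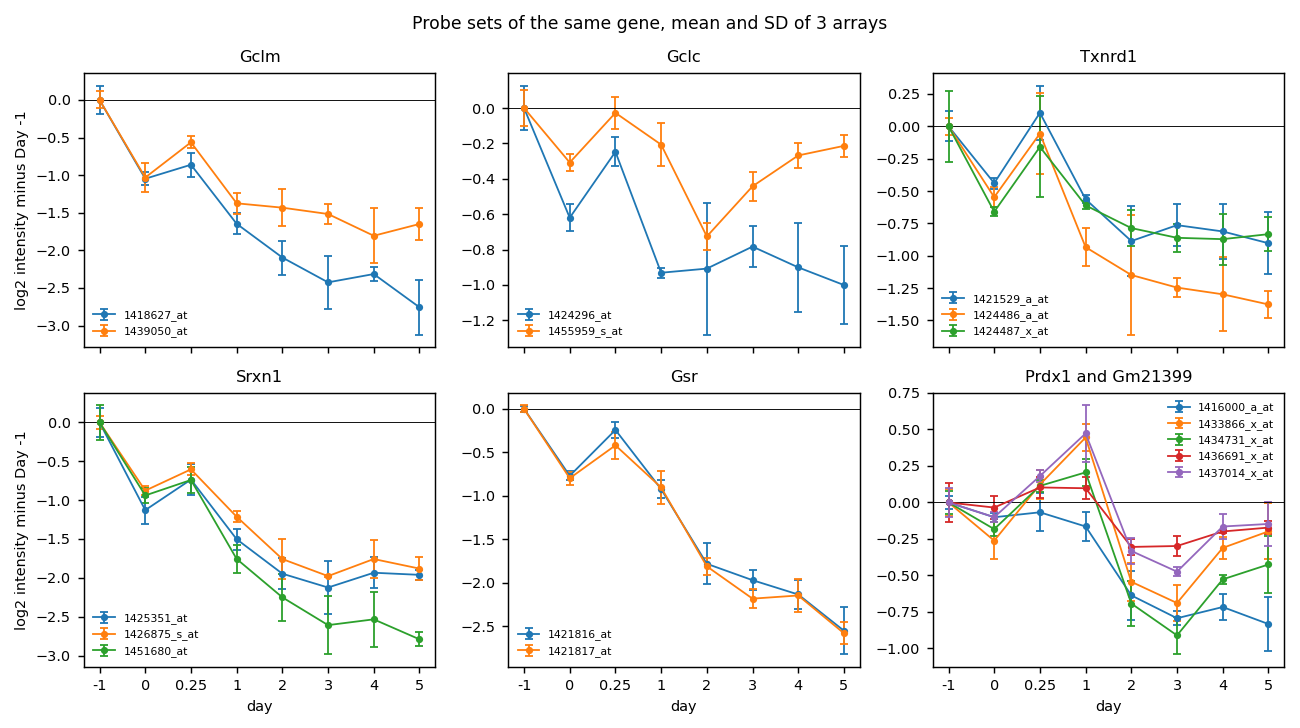
Log2 intensity minus its Day -1 mean against the day of sampling, for each probe set that reached 100 of the 6 members with several such probe sets. Points are means and bars are SDs of 3 arrays. The lines of Gsr lie together and those of Prdx1 and Gm21399 part on Day 1. Those of Gclc lie apart from Day 0 on but come close on Day 2, where their bars overlap.

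The genes that control NRF2 or pair with it were described from a list of 15, of which 11 could be tested. For this and the following lists the shares over all genes are those given above, 25.2% higher and 21.5% lower on Day 0 than on Day -1, 21.5% and 23.6% over the next 6 hours, and 31.6% and 38.4% on Day 5 against Day -1, and many counts are near them. Up to Day 0, 3 rose and 2 fell against Day -1, over the next 6 hours 2 rose and 4 fell, and over the whole course 4 rose and 3 fell, with medians of -0.10, -0.09 and 0.02. The 2 falls up to Day 0 came to 0 or 1 when any 1 array of these days was left out, and the 2 rises over the 6 hours to 1 without Day 0 replicate 2 or 3 or Day 0.25 replicate 1 or 3. Nfe2l1, the gene of a relative of NRF2 that binds similar elements and controls proteasome genes, went up and down on the same days as Nfe2l2. It was 540 ± 79.4 on Day -1, 1338 ± 140 on Day 0 and 550 ± 85.1 on Day 0.25 (SD, n = 3), with log2 changes of 1.31 (SE 0.14, adjusted p = 6.02e-07) and -1.29 (SE 0.14, adjusted p = 1.12e-06). It later rose further, to 2521 ± 346 on Day 5 (2.22 from Day -1, SE 0.14, adjusted p = 3.69e-11). Keap1, the gene of the adaptor that holds NRF2 for degradation, fell from 313 ± 9.16 on Day -1 to 235 ± 28.6 on Day 5 (-0.42, SE 0.10, adjusted p = 0.000724). The small MAF genes differed. Maff fell from 199 ± 43.2 to 67.0 ± 7.78 over the same time (-1.55, SE 0.18, adjusted p = 2.38e-07), Mafk rose from 59.7 ± 2.38 to 119 ± 19.1 (0.98, SE 0.11, adjusted p = 1.76e-07), and Mafg fell over the first 6 hours from 638 ± 31.9 to 390 ± 56.3 (-0.72, SE 0.10, adjusted p = 2.35e-05). Sqstm1, whose protein competes with NRF2 for KEAP1, rose from Day -1 to Day 0 from 3974 ± 138 to 5576 ± 235 (0.49, SE 0.08, adjusted p = 0.000101).

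Several other glutathione transferases rose by Day 0 and several fell in the next 6 hours. Of 11 glutathione transferases tested besides Gsta4, 6 rose from Day -1 to Day 0 (median 0.72). From Day 0 to Day 0.25, 7 fell (median -0.58), a count of 4 without Day 0 replicate 2 or Day 0.25 replicate 1 or 3 and of 3 without Day 0 replicate 3. Gsto2 rose by 1.46 (SE 0.19, adjusted p = 4.20e-06) and then fell by 1.71 (SE 0.19, adjusted p = 8.28e-07) on the log2 scale. Its means were 37.6 on Day -1, 100.6 on Day 0 and 30.8 on Day 0.25. Of these, only that of Day 0 reached the level minimum, and only just, a course that the level filter can favour. The counts of rises and falls given here include Gsto2. Gsta2 fell over the first 6 hours from 1510.4 ± 182 to 299 ± 44.5 (-2.34, SE 0.22, adjusted p = 1.44e-07). By Day 5, 5 transferases were above Day -1, among them Mgst1 (1.97, SE 0.28, adjusted p = 3.45e-06), and 3 below it, among them Mgst3 (-2.45, SE 0.22, adjusted p = 3.83e-09). Transferases are close relatives and their probe sets may share signal.

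Of 5 other genes of glutathione synthesis and supply that could be tested, 3 rose from Day -1 to Day 0 (median 1.08), 4 fell over the first 6 hours (median -1.73) and 3 were higher on Day 5 than on Day -1 (median 1.05). Cth, which makes cysteine from cystathionine, went from 123 ± 4.55 to 1431 ± 30.6 and back to 30.1 ± 12.7 on these 3 time points (log2 changes 3.54, SE 0.20, adjusted p = 4.02e-11, and -5.66, SE 0.20, adjusted p = 7.78e-14). Slc3a2, a subunit of several amino acid transporters, the cystine transporter among them, rose by 1.08 from Day -1 to Day 0 (SE 0.09, adjusted p = 1.67e-08). Chac1, which breaks glutathione down rather than making it, fell by 4.65 over the first 6 hours (SE 0.22, adjusted p = 6.37e-12). Among 7 glutathione peroxidases and glutaredoxins, 2 rose from Day -1 to Day 0, 1 fell over the first 6 hours (Gpx4, -0.56, SE 0.12, adjusted p = 0.000862), and on Day 5 3 were above and 1 below Day -1 (Glrx5, -0.61, SE 0.16, adjusted p = 0.00257). Gpx3, the secreted peroxidase, went from 2.38 ± 0.365 to 651 ± 128 (8.09, SE 0.43, adjusted p = 2.18e-12), a fold that rests on a Day -1 level at the lower end of the scale.

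Of 8 tested genes that supply NADPH, which glutathione and thioredoxin reductase use, 3 were lower and 2 higher on Day 0 than on Day -1, 5 rose and 1 fell over the first 6 hours (median 0.46), and on Day 5 4 were below and 1 above Day -1 (median -0.57), where 38.4% of all genes were lower. Neither of the 2 that rose from Day -1 to Day 0 was called without Day -1 replicate 2. Pgd, of the pentose phosphate pathway, read 3002 ± 33.3, 1796 ± 125 and 2921 ± 223 on Day -1, Day 0 and Day 0.25 (log2 changes -0.74, SE 0.11, adjusted p = 2.53e-05, and 0.70, SE 0.11, adjusted p = 6.08e-05). Malic enzyme, Me1, fell from 966 ± 81.2 on Day -1 to 310 ± 42.0 on Day 5 (-1.65, SE 0.11, adjusted p = 9.11e-11).

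The remaining lists were mixed. Of 11 thioredoxins, peroxiredoxins and their partners, 4 rose and 3 fell from Day -1 to Day 5 (median 0.09). Thioredoxin itself, Txn1, the substrate of Txnrd1, fell from 7321 ± 562 to 3008 ± 785 (-1.31, SE 0.18, adjusted p = 1.76e-06), and Txnip, whose protein binds and inhibits thioredoxin, rose from 367 ± 58.9 to 1688 ± 513 (2.17, SE 0.20, adjusted p = 6.96e-09). Of 10 genes of heme and iron, 3 rose and 4 fell (median -0.10). Fth1, the heavy chain of ferritin and a target of NRF2, rose from 8615 ± 413 to 11198 ± 22.4 (0.38, SE 0.07, adjusted p = 3.68e-05), and Tfrc, the transferrin receptor, fell (-1.51, SE 0.17, adjusted p = 9.70e-08). Of 14 genes of detoxification and quinone reduction, 5 rose and 7 fell (median -0.12), with 4 falls without Day -1 replicate 2 or Day 5 replicate 3. Nqo2, the relative of Nqo1, fell from 422 ± 60.6 to 131 ± 15.6 (-1.68, SE 0.14, adjusted p = 1.52e-09). Ptgr1, a reductase of reactive aldehydes and ketones, fell (-1.68, SE 0.13, adjusted p = 3.65e-10) and Ephx1, an epoxide hydrolase, rose (1.52, SE 0.13, adjusted p = 3.29e-09). Of 4 superoxide dismutases and catalase, 1 rose and 1 fell, Sod3 (1.94, SE 0.35, adjusted p = 5.76e-05) and Sod1 (-0.45, SE 0.17, adjusted p = 0.0260), the latter call being lost when Day -1 replicate 1, or Day 5 replicate 1 or 2, was left out.

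**Figure D4:**
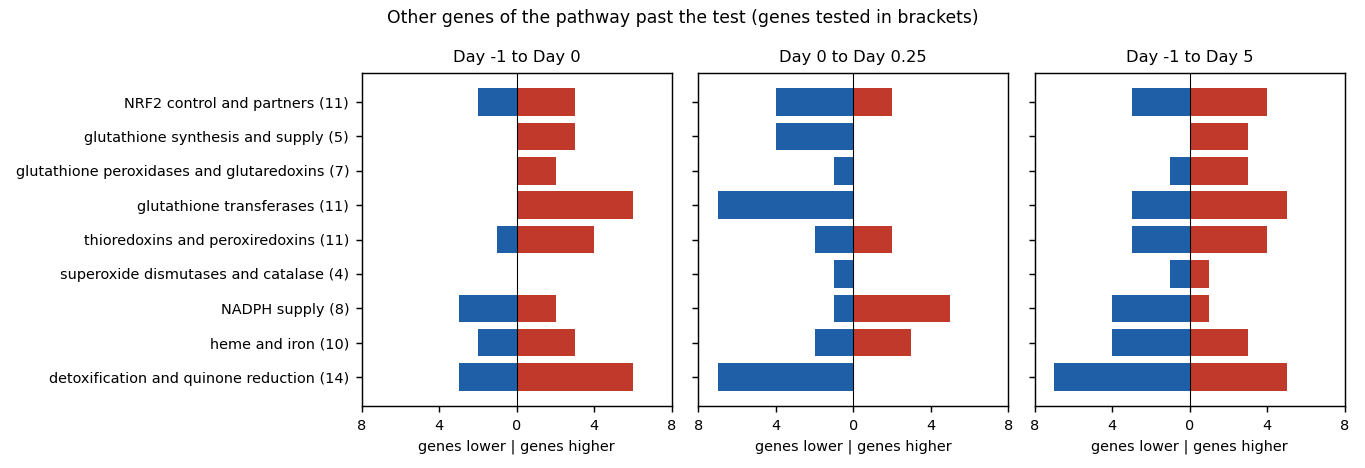
Number of genes in each list that passed as lower (blue, to the left) or higher (red, to the right) in 3 comparisons, with the number tested from Day -1 to Day 0 in brackets. Glutathione transferases are red from Day -1 to Day 0 (6 of 11) and blue from Day 0 to Day 0.25 (7 of 11), and the list of NADPH supply has 5 of 8 to the right in the latter.

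The genes whose course was most like that of a member were found by Pearson's r between the log2 means of the 8 time points, among the genes with a level of at least 100 and a range of at least 1 on the log2 scale. Gsr was closest to Ahcy (r = 0.998), Sqle (0.998) and Rad9a (0.997), Gclm to Msc (0.994), Poc1b (0.987) and Tinf2 (0.987), and Gclc to Prpf4 (0.994), Tbrg4 (0.993) and Orc2 (0.990). Srxn1 was closest to Rbmx2 (0.993), Lyar (0.992) and Myo19 (0.990), Txnrd1 to Nup50 (0.987), Slc39a6 (0.985) and Nbn (0.984), and Nqo1 to Tafa5, Mcf2l and Orc6 (0.997 each). Nfe2l2 was closest to Hspb11 (0.972), Fbxo6 (0.959) and Alkbh7 (0.958), Gsta4 to Sf3b5 (0.981), Mrps26 (0.967) and Mrpl35 (0.966), and Hmox1 to Coq5 (0.981), Neu1 (0.960) and Lpl (0.959). Each r rests on 8 points from the same arrays, was picked from 3467 or 3468 genes and is a description.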

How the data were processed

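The authors deposited linear intensity values. By the methods they were normalized by GC-RMA, exponentiated and brought to a trimmed mean of 150 (2% trimmed) on every array, so changes are relative to the bulk of the array. The submitters' processing notes also name MAS5, with no role. The log2 values were taken here from the intensity that the authors deposited. Array annotation gave the genes, and 64 control probe sets were left out.

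The 13735 probe sets whose mean reached 100 at any time point entered 1 fit to all 24 arrays in limma 3.58.1 (R 4.3.3). Day 1 and Day 2 were fitted alone, after the study's methods, over 12622 probe sets with that level on either day. P-values were adjusted over all probe sets tested (Benjamini-Hochberg, threshold 0.05). With 3 arrays on each side an exact permutation test goes no lower than 0.1. For each gene the probe set of highest mean intensity over all arrays was used. The members and lists were chosen with earlier results of these data known, so lists have counts and medians and no test. Genes named are all members and, in each list and comparison, up to 2 in each direction with the lowest adjusted p, besides the 3 most alike in course. Scripts were tested on simulated data. Alternatives were separate fits, a replicate block, a level minimum of 200 or none, quantile normalization, a floor of 50, linear values, the probe set with the highest absolute t, an intensity trend, a 2-fold threshold and leaving out each array. The number of arrays limits the precision, and no pair of arrays held identical values.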

Additional observations from a re-analysis of the deposited data

How the results depend on the processing

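No change of a member that passed was reversed under an alternative, though linear values were not compared in direction. Changes that had not passed were not checked in this way. For Gclc from Day 2 to Day 5 the 2 probe sets went opposite ways (log2 changes -0.09 and 0.51). Requiring a 2-fold change left 1 fall from Day -1 to Day 0 (Gclm) and 0 rises there, and left 0 calls between Day 0 and Day 0.25, 0 between Day 0.25 and Day 1 and 0 among the falls from Day 1 to Day 2, the rises from Day 2 to Day 3, both directions from Day 2 to Day 5 and the rises from Day -1 to Day 5. Among the falls from Day -1 to Day 5, those of Txnrd1 (log2 change -0.90) and Gsta4 (-0.92) were under 2-fold. That of Gclc (-1.00) only just reached it. Separate fits gave 4 rises from Day 0 to Day 0.25 and 0 rises from Day 2 to Day 3. They also gave 1 fall from Day 2 to Day 5 and 1 rise from Day -1 to Day 5. Linear values gave 4 rises from Day 0 to Day 0.25, 1 fall from Day 1 to Day 2 and 1 between Day 2 and Day 5. The probe set with the highest absolute t gave 4 rises between Day 0 and Day 0.25, 2 between Day 2 and Day 3, 2 over Day 2 to Day 5, and 1 fall after Day 4. From Day 1 to Day 2 a level of at least 200 gave 2 falls. There Gclm (199 and 147) and Srxn1 (162 and 112) were below 200 on both days and so were not tested. No level filter also gave 2, Gsr and Nqo1, which enters there, while Gclm (adjusted p = 0.0652), Srxn1 (0.0639) and Gsta4 (0.0654) no longer passed. From Day 2 to Day 3 the call of Hmox1 was lost (0 rises) without the filter (0.0757), with quantile normalization (0.0511) and with the replicate block, at a log2 change of 0.45 in each. Leaving out each array gave 1 to 4 falls from Day 1 to Day 2, 0 to 1 rise from Day 2 to Day 3, 0 to 1 fall from Day 4 to Day 5 and 1 to 2 rises from Day -1 to Day 5. Beyond the genes that a level minimum leaves out or lets in, the cause of these moves was not tested. The replicate numbers were not treated as pairs, since no source ties them and not every pair correlated. Deviations of arrays with like numbers from the time point means correlated with an r of -0.514 to 0.555, above 0.1 for 12 of 21 pairs, all 3 pairs of Day 3 and Day 4 among them (0.210 to 0.350). With the replicate block the adjusted p of Hmox1 was 0.0590 for Day 0 against Day 0.25 and 0.0522 for Day 2 against Day 3, and no other call of a member was lost. Levels near the lower end of the scale limit Nqo1, and the number of arrays limits all else.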
